A study of Mus musculus with 3 samples.

Results

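The genes of fatty acid and sterol synthesis described here are 9 of the 31253 genes counted in mouse jaw cells. They are the sterol-responsive factors Srebf1 and Srebf2, the fatty acid synthesis genes Acly, Acaca, Fasn, Elovl6, Scd1 and Scd2, and the sterol synthesis gene Hmgcs1. The set was chosen by counts of these same cells, namely the 7d over Ctrl ratio of Elovl6 in T cells, which was low, and the 1d over Ctrl ratio of Srebf2 in neutrophils, which was high. Both are therefore given as descriptions. All 9 genes had UMIs (unique molecular identifiers, each a counted RNA molecule) in every library.

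Cytosolic fatty acids are built from acetyl-CoA, which ATP citrate lyase (Acly) makes from citrate. Acetyl-CoA carboxylase (Acaca) turns it into malonyl-CoA, fatty acid synthase (Fasn) assembles palmitate, Elovl6 elongates palmitate toward stearate, and the stearoyl-CoA desaturases Scd1 and Scd2 put in the double bond that gives oleate. Hmgcs1 makes the precursor of mevalonate, from which cholesterol is built. Srebf1 and Srebf2 encode membrane-bound factors that are released by proteolysis when sterols are low. The product of Srebf2 acts mainly on sterol genes, and that of Srebf1 mainly on fatty acid genes.

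The 1d and 7d libraries came from mice whose head and neck had received 10 Gy, taken 1 day and 7 days later, and the Ctrl library came from mice that were not irradiated. All mice were wild-type C57BL/6 males 10 weeks old, and each library pooled the jaws of 8 of them. Jaw tissue was digested with collagenase II, frozen, thawed and run through droplet single-cell RNA-seq that reads the 3' ends of RNAs. Each group is a single library, so no difference could be tested against replicate spread, and the 95% intervals given here cover counting error only. After filtering, 4879 cells of 1d, 6094 of 7d and 8623 of Ctrl remained, with medians of 5022, 3816.5 and 2419 UMIs per cell. Between 27 and 30 kept barcodes per library also occurred in another library.

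Cells were grouped into 27 clusters without using the 9 genes, and 19 clusters took names in 13 classes from marker genes. Each class name stands for cells like that type. Unnamed clusters are called by number. Cluster 8 was led by Rag1, Fam129c and Ly6d, genes of the B lineage, cluster 9 by Pf4, Itga2b, Cd34 and Mpo, cluster 12 by the collagens Col3a1 and Col1a1 with Bglap and Postn, and cluster 16 by Bmp2, Enpp2, Ptn and Sox9. The monocyte class was also led by C1qb and Adgre1, so it cannot be told apart from macrophages. A level is given as UMIs per 1000000 UMIs of the class (CPM). Levels are compared within a gene and not between genes. Ratios were formed where both libraries held 30 or more cells of a class, and a ratio counted as past 2-fold only where the gene had at least 20 UMIs over both libraries. Beside each count of members past 2-fold stands the share of all genes with 20 UMIs that were past it in the same class and direction.

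Upstream sequence was at hand for 7 of the 9 genes (RefSeq, GRCm38.p6). The 250 bases before the start of Srebf2, Hmgcs1, Fasn and Elovl6 are printed because Srebf2 and Hmgcs1 were both higher in 1 cluster of neutrophil precursors after irradiation, Fasn was higher in several classes at 7d, and Elovl6 differed most. Capitals mark the core of the sterol response element (TCACCCCA, or TGGGGTGA on the other strand) and CCAAT boxes (CCAAT, or ATTGG on the other strand), 5' to 3' on the gene's strand. They run chr15:82147019-82147268 (plus strand) for Srebf2, chr13:119690101-119690350 (plus) for Hmgcs1, chr11:120824548-120824797 (minus) for Fasn and chr3:129532136-129532385 (plus) for Elovl6.
Srebf2: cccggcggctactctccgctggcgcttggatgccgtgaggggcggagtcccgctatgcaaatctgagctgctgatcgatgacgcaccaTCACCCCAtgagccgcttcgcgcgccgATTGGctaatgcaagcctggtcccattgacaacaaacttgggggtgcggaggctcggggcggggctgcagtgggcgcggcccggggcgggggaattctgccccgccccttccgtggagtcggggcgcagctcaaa
Hmgcs1: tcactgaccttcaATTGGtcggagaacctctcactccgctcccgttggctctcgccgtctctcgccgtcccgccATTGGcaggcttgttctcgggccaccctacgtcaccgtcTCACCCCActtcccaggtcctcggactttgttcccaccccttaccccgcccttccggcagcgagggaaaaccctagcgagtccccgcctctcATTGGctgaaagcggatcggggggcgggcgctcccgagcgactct
Fasn: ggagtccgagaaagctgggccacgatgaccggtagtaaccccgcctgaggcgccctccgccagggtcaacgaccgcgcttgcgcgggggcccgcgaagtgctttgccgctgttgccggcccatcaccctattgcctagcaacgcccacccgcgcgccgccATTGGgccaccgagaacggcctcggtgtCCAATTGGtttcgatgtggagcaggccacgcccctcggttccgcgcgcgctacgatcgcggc
Elovl6: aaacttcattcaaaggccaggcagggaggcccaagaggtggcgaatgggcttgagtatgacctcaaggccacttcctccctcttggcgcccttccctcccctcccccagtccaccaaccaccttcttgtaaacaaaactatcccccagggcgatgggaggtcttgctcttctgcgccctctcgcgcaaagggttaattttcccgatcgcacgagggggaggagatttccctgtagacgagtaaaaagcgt
The sterol response element core stood 162 bases before the start of Srebf2 and 137 bases before that of Hmgcs1, in both on the gene's own strand. It was in 1.34% of 32817 promoter windows of this length, and in none of the windows of Srebf1, Acly, Acaca, Fasn and Elovl6. Only the exact letters of the core were searched, so variants of the element in these windows were not read. The window at hand for Acaca, chr11:84195188-84195437, lies inside the gene, whose first base is at 84129672. The bases before that first base of Acaca were not read. CCAAT boxes numbered 1 in Srebf2, 3 in Hmgcs1 and 3 in Fasn (a pair of them overlapping as CCAATTGG) and 0 in Elovl6, and 33.8% of windows held at least 1. The GC box (GGGCGG, or CCGCCC) occurred 4 times before Srebf2, 2 times before Hmgcs1 and not before Fasn or Elovl6, against 32.7% of windows with at least 1. The E-box CACGTG, in 6.02% of windows, was in none of the 7 genes' windows. These matches are letters in a window and nothing was measured at them.

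**Figure D1:**
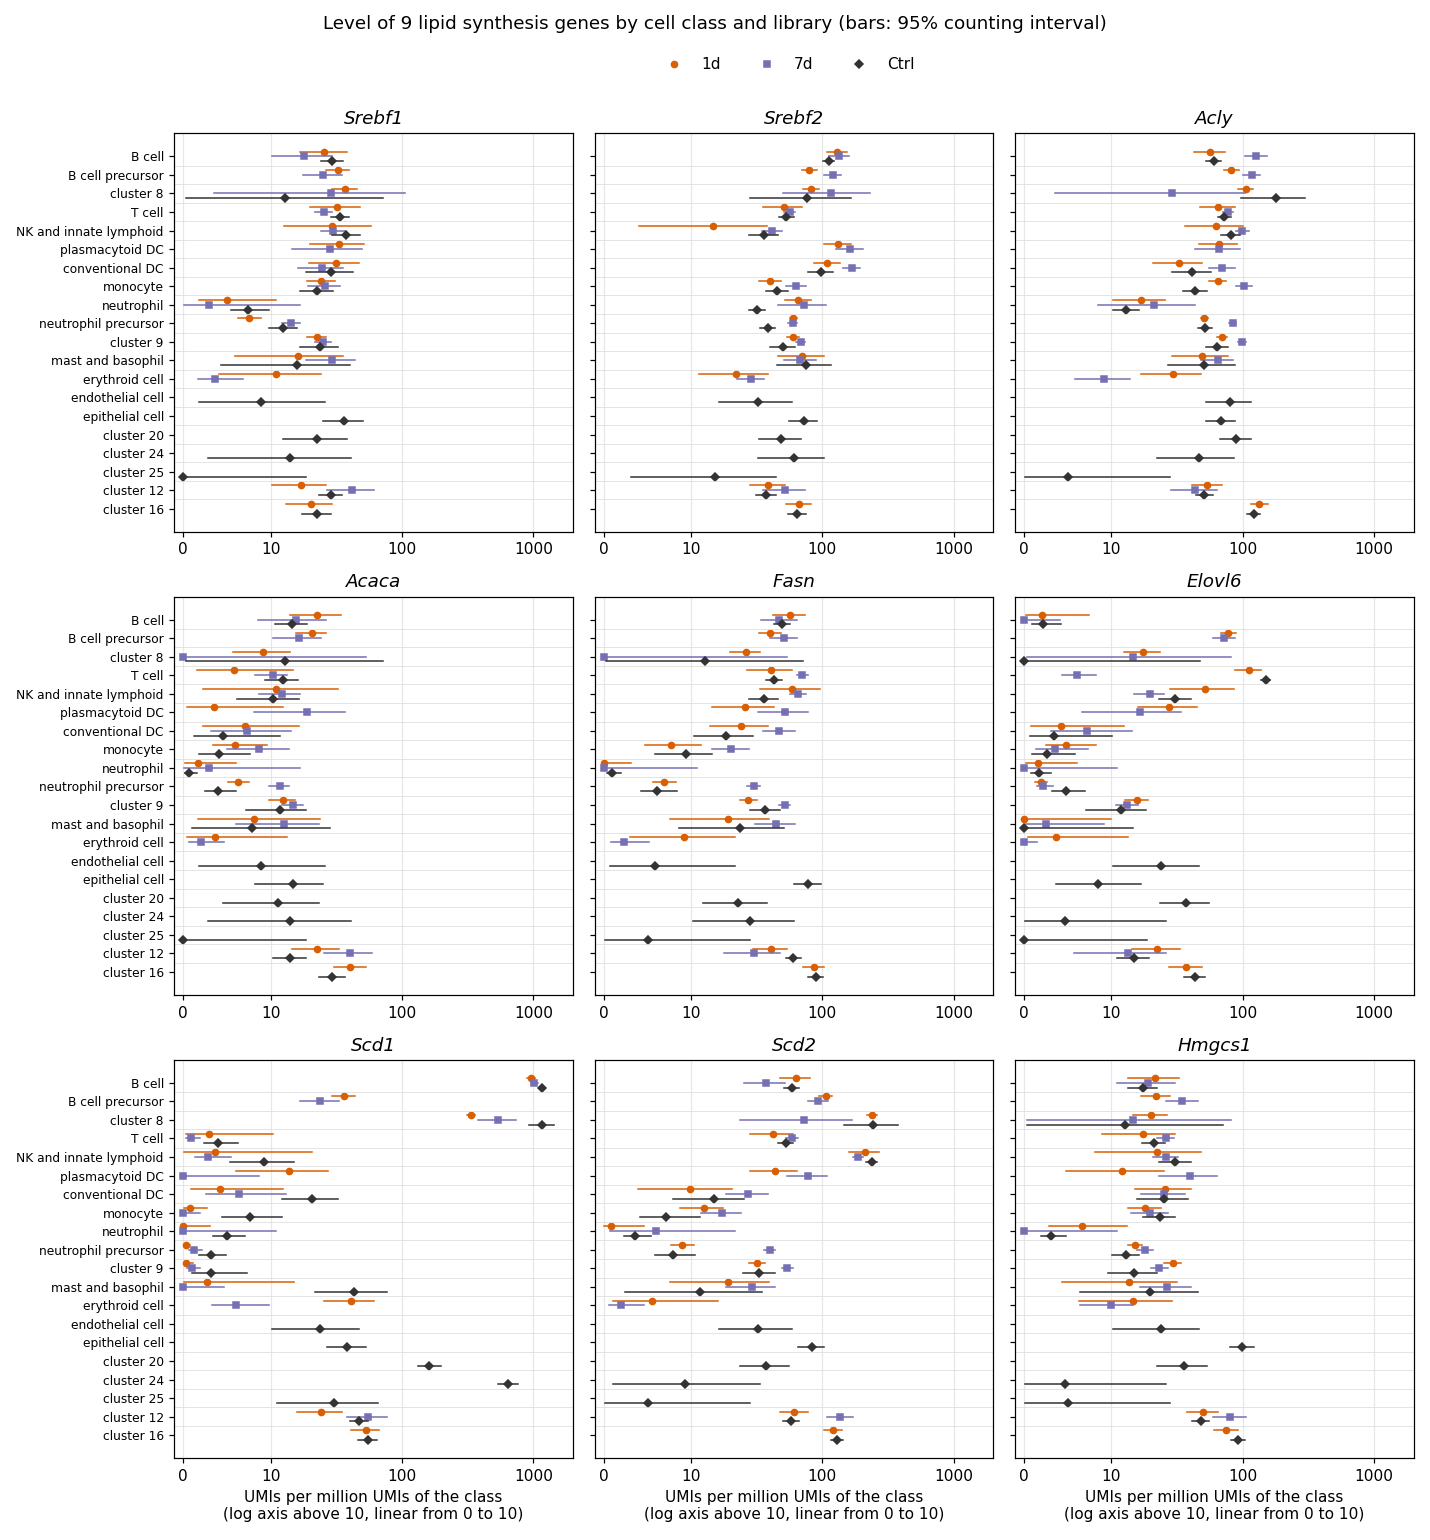
Level of each of the 9 genes (CPM of the class; log axis above 10, linear from 0 to 10) in each class or unnamed cluster with at least 30 cells in that library, for 1d (circles), 7d (squares) and Ctrl (diamonds), with 95% counting intervals. Scd1 stands near 1000 in B cells of all 3 libraries and Elovl6 in T cells is at 6.06 in 7d, against 150 in Ctrl.

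Elovl6 (chromosome 3, 129532355 to 129638495, plus strand, GRCm38) was highest in T cells of 1d and Ctrl and in B cell precursors, and its 7d over Ctrl ratio in T cells was the furthest from 1 of any member and class compared. T cells had 111 CPM in 1d (77 UMIs in 169 cells), 6.06 CPM in 7d (41 UMIs in 1880 cells) and 150 CPM in Ctrl (677 UMIs in 1317 cells). The 7d interval, 4.35 to 8.22 CPM, lay far below those of 1d (87.9 to 139) and Ctrl (138 to 161). The 7d over Ctrl ratio was 0.0405 (0.0288 to 0.0556), which is the value that chose the gene, and the 1d over Ctrl ratio was 0.745 (0.58 to 0.944). An Elovl6 UMI was found in 20.7% of T cells of 1d, 1.97% of 7d and 26.3% of Ctrl, at median depths of 3865, 3339 and 3185 UMIs per cell. The background share, read in Ctrl neutrophils, was 0.149%. With each cell thinned to 1000 UMIs the T cell shares were 8.59%, 0.806% and 12.9% (6, 20 and 15 shallower cells left out). The summed level of the 13 T cell markers was 3703 CPM in 1d, 3694 in 7d and 3823 in Ctrl.

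The 7d level of Elovl6 was the lowest of the 3 libraries in each T cell cluster. Cluster 6, led by Cd8b1 and Lef1, had 182 CPM in 1d, 6.05 in 7d and 240 in Ctrl, a 7d over Ctrl ratio of 0.0252 (0.0136 to 0.0427). Cluster 13, led by Foxp3, Cd4 and Ctla4, had 107 CPM in 1d, 9.05 in 7d and 214 in Ctrl (ratio 0.0423, 0.0135 to 0.101). Cluster 3, led by Klra genes and Ccl5, had the lowest Ctrl level: 48.8 CPM in 1d, 5.64 in 7d and 25.8 in Ctrl (ratio 0.219, 0.125 to 0.37). The 3 clusters, which spread from 25.8 to 240 CPM in Ctrl, lay between 5.64 and 9.05 CPM in 7d.

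T cells were also split by their own UMIs of surface and lineage genes, in splits chosen after the cluster values were seen. For Elovl6, cells with Cd8a or Cd8b1 and no Cd4 had 163 CPM in 1d, 3.52 in 7d and 155 in Ctrl. Cells with Cd4 and neither Cd8 gene had 48.9 CPM in 1d (4 UMIs), 2.74 in 7d (1 UMI) and 132 in Ctrl (39 UMIs). Cells with no UMI of these 3 genes, the most numerous, had 93.8 CPM in 1d, 7.75 in 7d and 149 in Ctrl. Cells with a UMI of Foxp3, the factor of regulatory T cells, had 157 CPM in 1d (8 UMIs), none in 7d (0 UMIs in 41 cells) and 265 in Ctrl (71 UMIs). Against a floor of 3 UMIs that is at least 11.3-fold lower in 7d than in Ctrl. Every 7d value was below every 1d and Ctrl value of the same split.

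**Figure D2:**
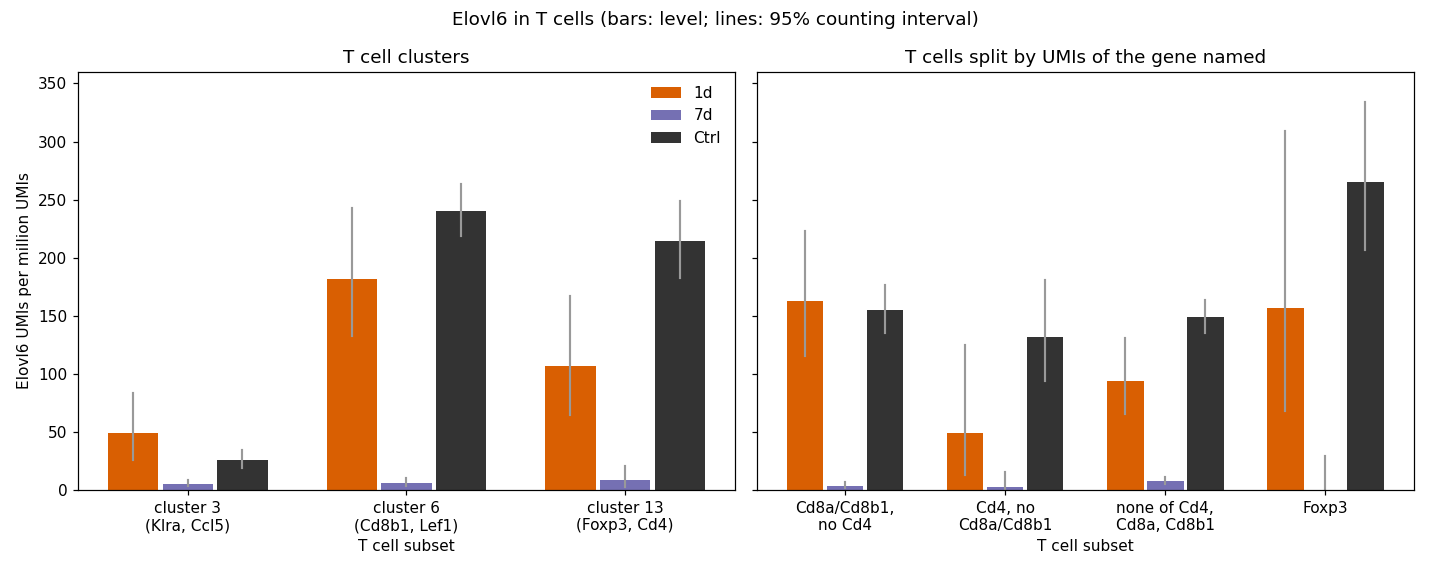
Elovl6 in T cells (CPM, from 0) by cluster (left) and by UMIs of the named genes (right), for 1d, 7d and Ctrl from left to right within each set, with 95% counting intervals as lines. The 7d bars stand between 0 and 9.05, and the Ctrl bars between 25.8 and 265.

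In other classes Elovl6 differed less. NK and innate lymphoid cells had 51.5 CPM in 1d (14 UMIs), 19.6 in 7d and 30.7 in Ctrl, a 7d over Ctrl ratio of 0.638 (0.434 to 0.939). B cell precursors, which had no cells in Ctrl, had 77.7 CPM in 1d and 72.2 in 7d, with intervals that overlap (67.8 to 88.6 and 59.1 to 87.4). Mature B cells had 2.05 CPM in 1d, 0 in 7d (0 UMIs, which at 3 UMIs allows up to 3.36) and 2.17 in Ctrl. In cluster 9 the levels were 15.7, 13.2 and 11.9 CPM in 1d, 7d and Ctrl, and in cluster 12 they were 22.4, 13.3 and 14.8, with overlapping intervals in both. T cells held 12.7% of the Elovl6 UMIs of kept cells in 1d, 10.8% in 7d and 66.3% in Ctrl. Neutrophil precursors were low in all libraries, at 1.91 CPM in 1d, 2.25 in 7d and 4.86 in Ctrl. Elovl6 overlaps the antisense gene Gm35986, which had 0, 0 and 1 UMIs in T cells of 1d, 7d and Ctrl.

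Scd1 (chromosome 19, 44394455 to 44407879, minus strand) was highest in mature B cells, and it was the leading gene of their larger cluster although it was not used to form it. B cells had 959 CPM in 1d (interval 899 to 1023), 1017 in 7d (951 to 1085) and 1168 in Ctrl (1134 to 1204). The Ctrl interval lay above both others, and the ratios were 0.821 (0.764 to 0.881) at 1d and 0.87 (0.809 to 0.935) at 7d, both inside 2-fold. No member was past 2-fold in B cells at 1d, where 1.98% of genes were higher and 4.01% lower, and none was past 2-fold lower at 7d, where 10.8% were. A UMI was found in 82.5% of B cells in 1d, 75.9% in 7d and 83.8% in Ctrl, and in 61.5%, 60.4% and 64.9% once cells were thinned to 1000 UMIs. Single B cells held up to 12, 15 and 16 Scd1 UMIs in 1d, 7d and Ctrl, with medians of 2, 1 and 2. B cells supplied 81.7% of the Scd1 UMIs of kept cells in 7d and 83.5% in Ctrl, but 47.6% in 1d, where cluster 8 supplied another 39.4%.

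Within the B lineage Scd1 followed the order precursor, cluster 8, B cell in 1d and in 7d. B cell precursors, led by Vpreb1, Igll1 and Dntt, had 35.9 CPM in 1d and 23.8 in 7d. Cluster 8 had 336 CPM in 1d (917 cells), 537 in 7d (33 cells) and 1160 in Ctrl (42 cells), and its Ctrl level was not apart from that of Ctrl B cells. Its ratios were 0.29 (0.233 to 0.364) at 1d and 0.463 (0.307 to 0.685) at 7d. The larger B cell cluster, cluster 0, had 1019 CPM in 1d, 1121 in 7d and 1284 in Ctrl. The smaller, cluster 18, ran the other way, with 662, 613 and 408 CPM and ratios of 1.62 (1.27 to 2.06) at 1d and 1.5 (1.18 to 1.91) at 7d.

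Scd2 (chromosome 19, 44293674 to 44306864, plus strand), the neighbouring desaturase, had another pattern. NK and innate lymphoid cells had 210 CPM in 1d, 187 in 7d and 238 in Ctrl, a 7d over Ctrl ratio of 0.785 (0.691 to 0.893). Cluster 8 had 240 CPM in 1d, 72.5 in 7d (5 UMIs) and 242 in Ctrl (19 UMIs), and B cell precursors had 106 in 1d and 92.7 in 7d. Mature B cells had less, at 62.4, 37 and 58.4 CPM in 1d, 7d and Ctrl, a 7d ratio of 0.633 (0.425 to 0.916). Along the B lineage in 1d Scd1 was highest in B cells and Scd2 in cluster 8. Over the last 600 bases of the longest transcripts, Scd1 and Scd2 shared 0 of 570 stretches of 31 bases with each other or with the other annotated Scd genes.

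**Figure D3:**
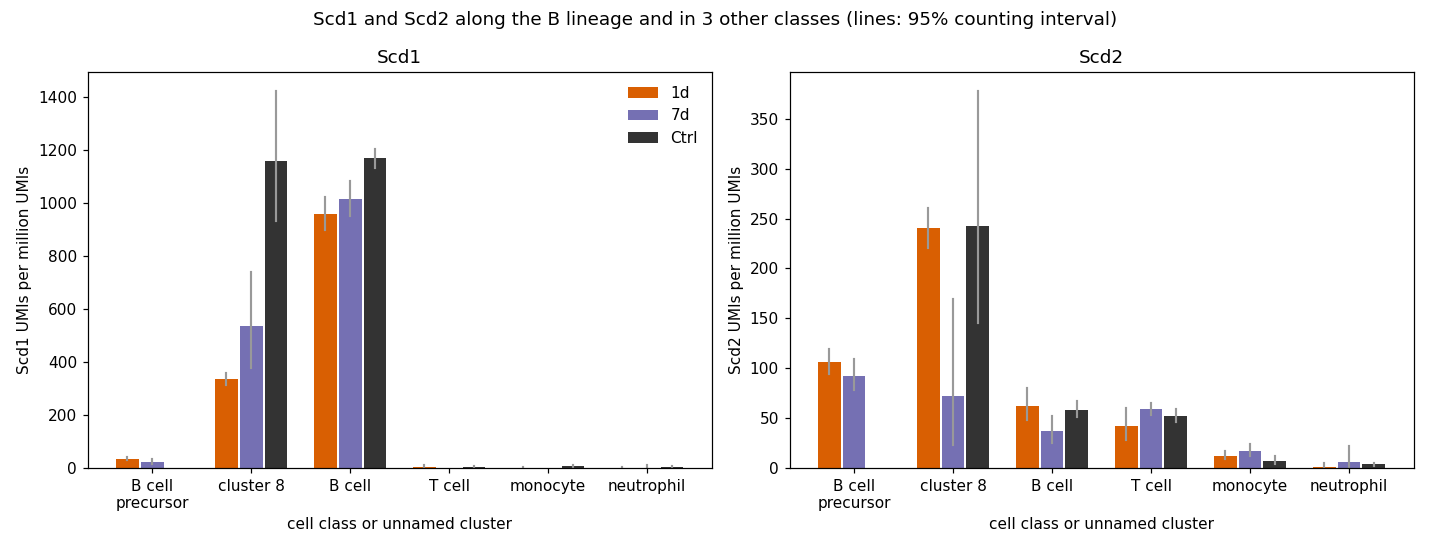
Scd1 (left) and Scd2 (right) in CPM, from 0 on separate axes, in B cell precursors, cluster 8, B cells, T cells, monocytes and neutrophils, with 1d, 7d and Ctrl from left to right and 95% counting intervals. Ctrl has no B cell precursors. Scd1 in B cells lies between 959 and 1168 and Scd2 in cluster 8 at 240 in 1d.

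In most other classes Scd1 rested on few UMIs, with the highest level in Ctrl. Conventional dendritic cells had 4.25 CPM in 1d, 6.34 in 7d and 20.6 in Ctrl, T cells 2.89, 0.887 and 3.98, neutrophils 0, 0 and 5.02, and monocytes 0.738, 0 and 7.64. Barcodes that failed the cell filter and had over 50% haemoglobin UMIs hold mostly red cell and free RNA. They had 2 Scd1 UMIs in 1d, 2 in 7d and 6 in Ctrl, or 22.8, 13.9 and 59 per 1000000 of their other UMIs. B cells were 7.01% of kept cells in 1d, 7.35% in 7d and 20.2% in Ctrl. With 5% of each class's UMIs taken off at the library's mean profile, member and class pairs past 2-fold lower numbered 3 instead of 6 at 1d and 2 instead of 7 at 7d. The minimum of 20 UMIs was applied again to what was left, so pairs with few UMIs could drop out whatever their ratio. Of 166 single ratios, the values that chose the set aside, 160 kept a value under this setting. All 160 stayed inside their main counting interval. A ratio had no value where too few UMIs were left, so lower calls on few UMIs could not all be checked. The part of free RNA in the lower calls was not tested. Cluster 24, led by the red cell gene Alas2 with the B cell gene H2-DMb2 and Scd1, had 644 CPM in Ctrl (59 cells). Cluster 20, which had no cells in 1d or 7d, had 161 CPM, and cluster 16 had 52.7 in 1d and 54.7 in Ctrl.

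Srebf2 (chromosome 15, 82147181 to 82205379, plus strand) was found in every class, from 14.7 to 167 CPM in classes with at least 30 cells, with the highest level in conventional dendritic cells of 7d (167), then plasmacytoid dendritic cells of 7d (162) and B cells of 7d (134). In neutrophils, where its 1d ratio had a part in choosing the set, it had 65.3 CPM in 1d (78 UMIs in 410 cells), 71.9 in 7d (24 UMIs in 153 cells) and 31.7 in Ctrl (202 UMIs in 2683 cells). The ratios were 2.06 (1.57 to 2.69) at 1d and 2.27 (1.42 to 3.47) at 7d. Srebf2 and Hmgcs1 were the members past 2-fold higher in neutrophils at 1d, where 3.18% of all genes were. Hmgcs1 had 8 UMIs in 1d and 20 in Ctrl, and the interval of its ratio, 0.813 to 5.06, holds 1. Scd2 was the member past 2-fold lower, on 1 UMI in 1d and 23 in Ctrl (background 7.17%). At 7d Srebf2 was the member past 2-fold higher, where 15.4% of genes were, and Srebf1 the one past 2-fold lower, where 10.4% were (1 UMI in 7d, 47 in Ctrl; ratio 0.406, 0.0101 to 2.38). Scaling by TMM, which equalises the bulk of genes, gave 1.93 for Srebf2 at 1d and 1.74 at 7d. The 1d ratio was also under 2 with doublets kept (1.89), with no filter on cells (1.97) and, by a margin in the third decimal, at the lower clustering resolution.

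Both neutrophil clusters gave a higher 1d level of Srebf2. Cluster 1, led by Retnlg, Cxcr2 and Fpr1, had 63.9 CPM in 1d, 83.6 in 7d and 30 in Ctrl, with ratios of 2.13 (1.53 to 2.92) at 1d and 2.78 (1.6 to 4.58) at 7d. Cluster 4, led by Il1rn and Ccrl2, had 70 CPM in 1d, 50.6 in 7d (6 UMIs) and 34.9 in Ctrl, with ratios of 2.01 (1.15 to 3.35) at 1d and 1.45 (0.516 to 3.31) at 7d. The summed level of the 10 neutrophil markers was 228042 CPM in 1d, 207495 in 7d and 201158 in Ctrl.

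Among neutrophil precursors, cluster 5, led by the secondary granule genes Ltf, Ngp, Lcn2 and Camp, had the larger difference. This cluster was placed with the precursors by its leading genes, although its mean log2 marker score was higher for neutrophils (1.1) than for precursors (0.617), and it held 310 of the 385 precursor cells of Ctrl. Cycling cells were 3.24% of it in 1d, 2.94% in 7d and 27.1% in Ctrl, and among its Ctrl cells the Srebf2 ratio of cycling to other cells was 0.928 (0.652 to 1.32). Its Srebf2 level was 87.7 CPM in 1d, 99.8 in 7d and 38.4 in Ctrl, with ratios of 2.28 (1.89 to 2.78) at 1d and 2.6 (2.01 to 3.35) at 7d. Hmgcs1 (chromosome 13, 119690379 to 119708260, plus strand) followed in the same cluster, with 21.2 CPM in 1d, 29 in 7d and 11.8 in Ctrl, ratios of 1.8 (1.26 to 2.62) and 2.46 (1.52 to 3.96). Srebf1 (chromosome 11, 60199089 to 60222581, minus strand) went the other way there, with 2.98 CPM in 1d, 7.68 in 7d and 12.9 in Ctrl, and its 1d ratio was 0.231 (0.124 to 0.41). In cluster 10, led by the primary granule genes Elane, Prtn3 and Mpo, Srebf2 had 39.5, 50.7 and 36.6 CPM in 1d, 7d and Ctrl, with ratios of 1.08 (0.769 to 1.55) and 1.38 (1 to 1.96). Cluster 11, led by Camp, Fcnb and Cebpe, lay between, at 52.4, 67.4 and 39.9 CPM.

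**Figure D4:**
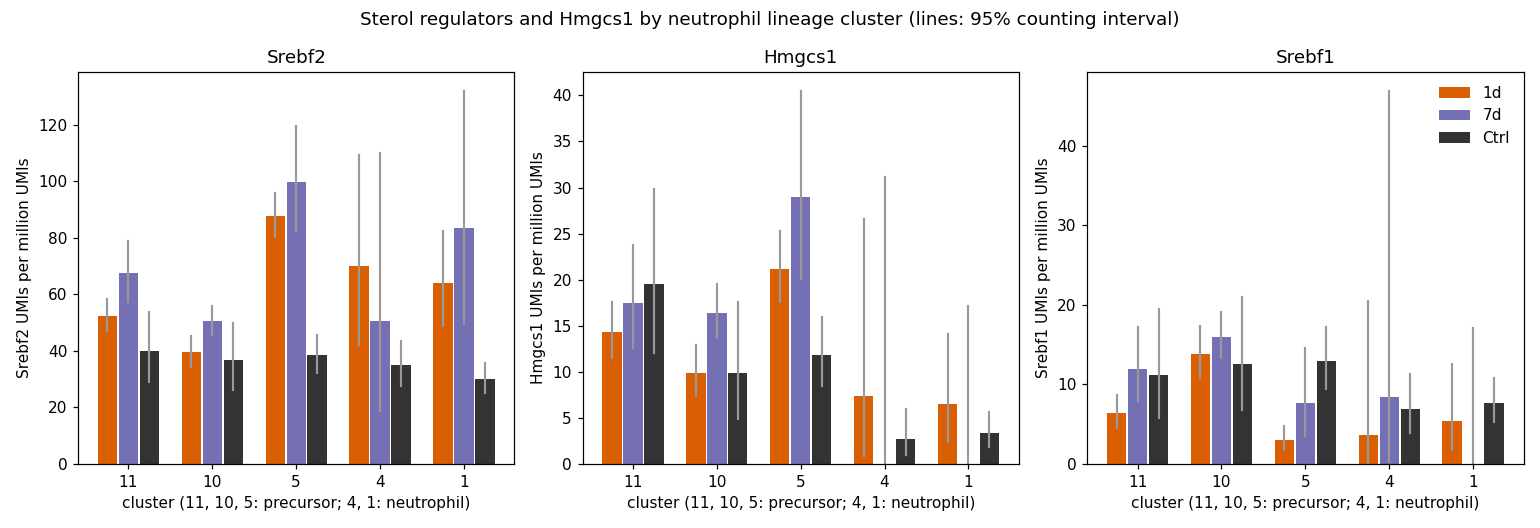
Srebf2, Hmgcs1 and Srebf1 (CPM, from 0, separate axes) in the 5 neutrophil lineage clusters, precursor clusters 11, 10 and 5 and neutrophil clusters 4 and 1, with 1d, 7d and Ctrl from left to right and 95% counting intervals. In cluster 5 Srebf2 and Hmgcs1 are higher in 1d and 7d than in Ctrl, and Srebf1 is at 2.98 in 1d, against 12.9 in Ctrl.

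In conventional dendritic cells and monocytes the 7d ratio of Srebf2 had an interval above 1 and the 1d ratio one that held 1. Conventional dendritic cells had 109 CPM in 1d, 167 in 7d and 97.3 in Ctrl (7d ratio 1.71, 1.32 to 2.24), and monocytes had 40.2, 63.3 and 45.4 CPM (7d ratio 1.39, 1.06 to 1.83). T cells had 50.6, 56.3 and 53.2 CPM and B cells 130, 134 and 112, with all intervals of the ratios holding 1. NK and innate lymphoid cells of 1d had 14.7 CPM on 4 UMIs, against 35.9 in Ctrl, a ratio of 0.41 (0.108 to 1.1), and Srebf2 was the only member past 2-fold lower there, where 9.17% of genes were. None was past 2-fold higher there (3.91% of genes). Among named classes Srebf1 was past 2-fold in neutrophils at 7d, on the 1 UMI given above, and in no other. Its T cell ratio at 7d was 0.748 (0.598 to 0.936).

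In monocytes at 7d, 4 of the 7 members measured were past 2-fold higher, the enzymes Acly, Acaca, Fasn and Scd2, where 8.44% of all genes were. None was past 2-fold lower (9.01% of genes), and at 1d none was past it in either direction (7.19% of genes higher, 3.67% lower). Acly (chromosome 11, 100476353 to 100528000, minus strand) had 64.6 CPM in 1d, 103 in 7d and 43.6 in Ctrl, with ratios of 1.48 (1.15 to 1.92) at 1d and 2.36 (1.84 to 3.03) at 7d. Fasn (chromosome 11, 120805846 to 120824547, minus strand) had 7.75, 20.3 and 9.44 CPM in 1d, 7d and Ctrl (7d ratio 2.15, 1.24 to 3.83), and Scd2 had 12.5, 17.2 and 7.19 (7d ratio 2.39, 1.29 to 4.64). Acaca (chromosome 11, 84129672 to 84401651, plus strand) had 5.9, 8.61 and 4.05 CPM on 16, 17 and 9 UMIs, and its interval at 7d, 0.897 to 5.42, holds 1. Hmgcs1 did not share this, with 18.1, 19.8 and 23.4 CPM. Fasn rested on 40 UMIs in 7d and 21 in Ctrl, and Scd2 on 34 and 16. Over 12 alternatives the lowest 7d ratios were 1.8 for Acly, 1.61 for Acaca, 1.41 for Fasn and 2.02 for Scd2. Of these 4 enzymes, only Scd2 stayed past 2-fold throughout. The median log2 ratio over the 7 members was 1.05 at 7d, beside 0.05 over 8317 genes, and at 1d it was 0.11 beside 0.12.

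Conventional dendritic cells shared part of this. Fasn had 24.1 CPM in 1d, 47.1 in 7d and 18.3 in Ctrl, a 7d ratio of 2.57 (1.44 to 4.82), and was the member past 2-fold higher (8.94% of genes). Acly had 32.6, 69.8 and 41.2 CPM (7d ratio 1.69, 1.12 to 2.59). Scd1, described above, was past 2-fold lower in this class at 1d (3.57% of genes) and at 7d (10.8%). No member was past 2-fold higher in it at 1d, where 5.21% of genes were.

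Fasn was also higher at 7d in T cells and in NK and innate lymphoid cells. T cells had 40.5 CPM in 1d, 70.5 in 7d and 42.8 in Ctrl (7d ratio 1.65, 1.39 to 1.95), and cluster 3 gave the largest ratio among them, 2.08 (1.58 to 2.77). NK and innate lymphoid cells had 58.9, 65.7 and 35.9 CPM (7d ratio 1.83, 1.37 to 2.47). B cells had 56.3, 47.1 and 49.5 CPM, with overlapping intervals. Acly was past 2-fold higher at 7d in B cells, with 56.3 CPM in 1d, 127 in 7d and 60.1 in Ctrl (7d ratio 2.11, 1.67 to 2.66). It was the only member past 2-fold there (3.65% of genes higher), and its lowest ratio over 12 alternatives was 1.55. Besides monocytes and conventional dendritic cells, given above, Acly had 7d intervals above 1 in neutrophil precursors (1.63, 1.43 to 1.86) and cluster 9 (1.54, 1.26 to 1.92). T cells had 65.1 CPM of Acly in 1d, 77.6 in 7d and 72.7 in Ctrl. In T cells the members past 2-fold lower at 7d were Elovl6, by the value that chose the set, and Scd1 (6.96% of genes). At 1d the member past 2-fold lower was Acaca, on 4 UMIs in 1d (5.63% of genes). No member was past 2-fold higher in T cells, where 3.82% of genes were at 1d and 3.98% at 7d. In NK and innate lymphoid cells at 7d it was Scd1 (6.86% of genes), and none was past 2-fold higher (4.94%).

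Neutrophil precursors at 7d had Fasn at 6.88 CPM in 1d, 30 in 7d and 6.08 in Ctrl, a 7d ratio of 4.94 (3.48 to 7.21), and Scd2 at 9.02, 39.8 and 7.98, a ratio of 4.98 (3.67 to 6.91). Acaca had 6.24, 11.7 and 3.99 CPM, a ratio of 2.92 (1.87 to 4.78). These 3 of 9 members were past 2-fold higher where 32.4% of all genes were, a share near theirs. The clusters that made up the class differed: cluster 10 held 355 of its 733 cells in 7d and 32 of 385 in Ctrl, and cluster 5 held 204 and 310. Within cluster 10 the 7d ratios were 2.23 for Fasn (1.42 to 3.7), 2.67 for Scd2 (1.76 to 4.26) and 1.59 for Acaca (0.83 to 3.4). Within cluster 5, which held most of the Ctrl cells, the 7d ratios were 4.39 for Fasn (1.74 to 11.6) and 1.07 for Scd2 (0.346 to 2.85), on few UMIs. In its cycling and other cells Fasn had 4 and 9 UMIs in 7d and 2 and 7 in Ctrl. Scd2 had 1 and 5 in 7d and 8 and 9 in Ctrl, and its interval holds both 1 and 2. Acaca, at 1.14 (0.195 to 4.75), had under 20 UMIs over both libraries, too few to be called. Elovl6 and Scd1 were past 2-fold lower in the class at 1d (8.13% of genes) and at 7d (10.3%), all on 33 or fewer UMIs per library. These calls turned round under some settings: Elovl6 was at 1.18 at 1d and 1.37 at 7d with doublets kept and at 1.25 at 7d with no filter, and Scd1 at 7d was at 1.75 without cycling cells and at 2.11 in cluster 5. At 1d no member was past 2-fold higher in the class, where 10.2% of genes were.

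In cluster 12, led by collagens and bone genes, the enzymes differed in both directions. Scd2 had 60.9 CPM in 1d, 137 in 7d and 57.7 in Ctrl (7d ratio 2.37, 1.81 to 3.07), Acaca 22.4, 40 and 14 (2.86, 1.68 to 4.73) and Hmgcs1 50.2, 80 and 48.1 (1.67, 1.18 to 2.3). Fasn was lower, with 40.3, 30 and 60.1 CPM (7d ratio 0.499, 0.29 to 0.807). Scd2 and Acaca were the members past 2-fold higher at 7d, where 17.1% of genes were, and Fasn the one past 2-fold lower (12.1%). At 1d no member was past 2-fold there, where 4.75% of genes were higher and 5.77% lower. The 7d library gave 61 cells of this cluster, against 369 in Ctrl. In cluster 16, with too few 7d cells to compare, the 9 ratios at 1d lay within 2-fold, where 3.68% of genes were higher and 4.14% lower, with Acly at 134 CPM in 1d and 121 in Ctrl. In cluster 9 Hmgcs1 had 29.4 CPM in 1d, 23.2 in 7d and 15 in Ctrl (ratios 1.96, 1.28 to 3.14, and 1.55, 1.01 to 2.48), and all 8 measured members had a 7d ratio above 1, none past 2-fold (7.96% of genes higher, 7.13% lower). None was past 2-fold at 1d either (7.72% higher, 3.91% lower). Among mast cells and basophils at 7d, Scd2 was the only member past 2-fold higher, on 23 UMIs in 7d and 3 in Ctrl (26.3% of genes), and none was lower (7.53%). At 1d the 2 members measured there were within 2-fold, where 17.6% of genes were higher and 7.84% lower. In cluster 8 Srebf1 and Fasn were past 2-fold higher at 1d on 1 Ctrl UMI each, with ratios of 2.89 (0.505 to 116) and 2.04 (0.353 to 81.9), where 9.59% of genes were. Scd1 was past 2-fold lower there at 1d (12.6% of genes), and Scd1 and Scd2 at 7d (9.2% lower, 9.28% higher), when they were the only 2 members with 20 UMIs.

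**Figure D5:**
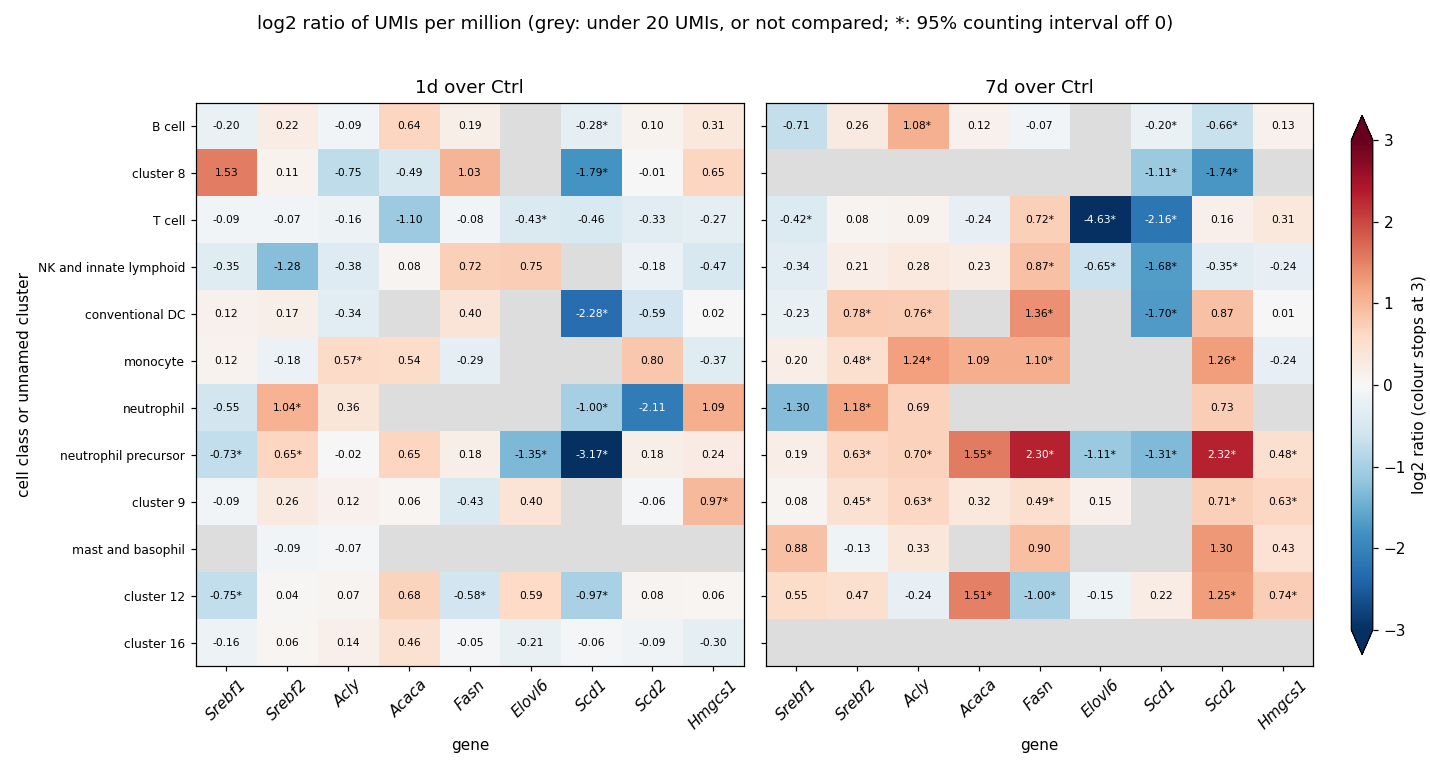
log2 ratio of CPM for 1d over Ctrl (left) and 7d over Ctrl (right), for the 9 genes (columns) in each class or unnamed cluster (rows); red is higher after irradiation, blue is lower, grey had under 20 UMIs or was not compared, and a star marks a 95% counting interval off 0. Scd1 in neutrophils at 1d, with 0 UMIs, is drawn at the floor of 3 UMIs. Elovl6 in T cells at 7d, at -4.63, is the value furthest from 0.

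Over the 8 named classes compared, 2 of 56 member and class pairs were past 2-fold higher and 6 lower at 1d, where 6.03% of all gene and class pairs were higher and 6.06% lower. At 7d 11 of 61 were higher and 7 lower, where 12.6% of all pairs were higher and 9.05% lower. The 1d higher pairs include Srebf2 in neutrophils and the 7d lower pairs include Elovl6 in T cells. Both values chose the set, so these counts are descriptions. Of the 11 higher ones, 3 came from neutrophil precursors and 1 from mast cells and basophils, the classes with the largest shares of all genes higher (32.4% and 26.3%). Of the 18 pairs at 7d, 5 were in neutrophil precursors and 4 in monocytes. TMM scaling moved all ratios of a class together, by -0.38 on the log2 scale in neutrophils, -0.35 in neutrophil precursors and -0.34 in cluster 12 at 7d, by 0.16 in T cells at 7d and by 0.28 in cluster 8 at 1d. After it, the 7d ratios in neutrophil precursors were 3.87 for Fasn, 3.9 for Scd2 and 1.21 for Srebf2, that of Scd2 in cluster 12 was 1.88, and Elovl6 in T cells stood at 0.0451.

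Levels over 46 pairs of a class and a library (at least 30 cells each), as log2(CPM + 10), gave a likeness between genes that is descriptive, since pairs share libraries and depth. Scd1 was most like Fcmr (Pearson r 0.94), Ms4a1 (0.92) and Iglc2 (0.92), genes of mature B cells. Among members, Fasn and Acaca were the most alike (0.78), then Acaca and Hmgcs1 (0.74). For Elovl6 the nearest genes were Abl1 (0.76), Rpap3 (0.75) and Slc12a7 (0.74), and for Srebf2 Gdi2 (0.72), Wdfy4 (0.69) and Dpp4 (0.69).

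The wider pathway was read through 5 gene lists. Counts by class are given for 7d, and for 1d only those of sterol synthesis in neutrophils and T cells. At 1d that list had 3 of 11 measured genes past 2-fold higher and 1 lower in neutrophils (3.18% and 7.17% of all genes). In T cells it had 2 of 19 higher and 0 lower (3.82% and 5.63%). Of the sterol synthesis list, 10 of 21 measured genes were past 2-fold higher in neutrophil precursors at 7d (32.4% of all genes were), with Dhcr7 (7.63-fold, 3.75 to 18.1) and Idi1 (3.45-fold, 2.56 to 4.73), both enzymes after mevalonate. There the median log2 ratio of the list was 0.97, beside 0.54 over all genes. Dhcr7 rested on 118 UMIs in 7d and 8 in Ctrl. Cluster 10 held 355 of the 733 cells of this class in 7d and 32 of 385 in Ctrl. The lists were not read within the clusters of the class, so the part of this difference was not tested. In monocytes at 7d 5 of 17 were past 2-fold higher and 0 lower (8.44% and 9.01% of all genes), with a median of 0.53 beside 0.05. Mvd, a mevalonate pathway enzyme, was at 31.9 CPM in 7d and 10.3 in Ctrl. In conventional dendritic cells at 7d 5 of 12 were higher and 1 lower (8.94% and 10.8% of all genes; median 0.39 beside -0.08): Cyp51, a lanosterol demethylase, had 67 CPM in 7d and 22.9 in Ctrl, and the lower one, Pmvk, had 37.1 and 126. In T cells at 7d 0 of 21 were past 2-fold in either direction (3.98% of all genes higher, 6.96% lower; median 0.07 beside -0.13). In cluster 12 at 7d 6 of 17 were higher and 1 lower (17.1% and 12.1% of all genes).

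The list of fatty acid synthesis, elongation and desaturation, which holds the 6 fatty acid members and their relatives, went both ways at 7d. The counts include the members. In monocytes 5 of 13 measured genes were past 2-fold higher and 0 lower (8.44% and 9.01% of all genes). The members Acly, Acaca, Fasn and Scd2, given above, are among these 5. In mast cells and basophils 7 of 13 were higher and 1 lower (26.3% and 7.53%), and in neutrophils 2 of 11 and 0 (15.4% and 10.4%). Neutrophil precursors had 8 of 19 higher and 4 lower (32.4% and 10.3%), and cluster 12 had 6 of 20 higher and 3 lower (17.1% and 12.1%). In NK and innate lymphoid cells 0 of 15 were higher and 3 lower, Scd1 among them (4.94% and 6.86%). The median log2 ratio there was -0.64, beside -0.06 over all genes. In T cells 0 of 18 were higher and 2 lower (3.98% and 6.96%). Those 2 are the members Elovl6, by the value that chose the set, and Scd1. B cells had 1 of 12 higher, the member Acly, and 1 lower (3.65% and 10.8% of all genes). Conventional dendritic cells had 1 of 10 higher and 1 lower (8.94% and 10.8%), the members Fasn and Scd1.

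Of the list of sterol uptake and its control, 3 of 14 measured genes were past 2-fold higher and 1 lower in monocytes at 7d (8.44% and 9.01% of all genes; median log2 ratio 0.53, beside 0.05), and 2 and 0 of 14 in T cells (3.98% and 6.96%; 0.15 beside -0.13). Insig1, which holds SREBP proteins in the endoplasmic reticulum, was past 2-fold higher at 7d in 5 of 10 classes or clusters with enough UMIs and lower in 1, cluster 12 (0.338, 0.212 to 0.514). In cluster 9 it had 35.4 CPM in 1d, 41.1 in 7d and 10.6 in Ctrl. Lbr, a sterol reductase that is also the lamin B receptor, had a 7d ratio above 1 in 11 of 11, and was past 2-fold in 6.

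Of the list of acyl-CoA activation and lipid storage, 0 of 10 measured genes were past 2-fold higher and 3 lower in T cells at 7d (3.98% and 6.96% of all genes), and 0 and 4 of 9 in B cells (3.65% and 10.8%). Other classes had higher ones too: 2 higher and 3 lower of 9 in neutrophils (15.4% and 10.4%), 2 and 1 of 9 in mast cells and basophils (26.3% and 7.53%) and 1 and 2 of 10 in monocytes (8.44% and 9.01%). Of the sterol export list, 0 were higher and 1 of 6 lower in monocytes, and 0 and 3 of 5 in neutrophil precursors (32.4% and 10.3% of all genes). Dgat1, which makes triglyceride, was past 2-fold lower at 7d in 9 of 10 classes or clusters. Its ratios ran from 0.131 in monocytes (32.9 CPM in 7d, 251 in Ctrl) to 0.653 in neutrophils, the class in which it was not past 2-fold. In T cells it had 174 CPM in 7d and 727 in Ctrl (0.239, 0.223 to 0.255), and in NK and innate lymphoid cells 277 CPM in 7d and 1093 in Ctrl (0.254, 0.234 to 0.275). At 1d Dgat1 was past 2-fold lower in 3 of 12 and higher in 1, cluster 8. Abca1, the cholesterol exporter, was past 2-fold lower at 7d in 6 of 10, with 81.5 CPM in 7d and 415 in Ctrl in monocytes (0.196, 0.165 to 0.232) and 102 and 516 in neutrophils (0.197, 0.136 to 0.276). Its 7d ratio was above 1 in NK and innate lymphoid cells, at 1.47. Plin2, which coats lipid droplets, had a 7d ratio below 1 in 10 of 10 and was past 2-fold lower in 5, with ratios from 0.247 in B cells to 0.873 in cluster 9.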

How the data were processed

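Values were UMI counts per gene and cell, whole numbers as the deposited files hold them. The authors' counts came from Cell Ranger 6.1.1, per the file headers, and CASAVA 1.8, Cell Ranger, Seurat and mm10 are named in the submitters' processing notes. Annotation release, strand setting and method of cell calling were not given in the sources used here. Srebf1, Elovl6 and Hmgcs1 overlap genes of the opposite strand (Rai1, Gm35986, Gm48342).

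Cells with at least 500 UMIs, 250 genes and at most 15% mitochondrial UMIs were kept. Of 6043 barcodes in 1d, 7744 in 7d and 11315 in Ctrl, with 46119700, 49998293 and 41048084 UMIs, the filter removed 916, 1247 and 2435. Doublets were called with Scrublet in scanpy 1.11.5, by its automatic threshold in Ctrl (257 cells) and at 0.8% per 1000 barcodes in 1d (248) and 7d (403). Cells were clustered (2000 variable genes without the members and pathway lists, 30 components, 15 neighbours, Leiden resolution 1, leidenalg 0.10.2) and named from markers. UMIs were summed per class and library. Levels carry exact Poisson intervals, shares exact binomial ones and ratios exact conditional ones, with a floor of 3 UMIs where a side was 0; they cover counting error only. The scripts were tested on simulated counts.

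Named genes were all members, and per class and comparison up to 3 pathway genes per direction past 2-fold whose nearer interval end lay furthest from 1, found in at least 5% of cells and with no cell over 20% of the UMIs. Some genes this rule names are not reported here. Like genes were the top 3 by Pearson r among genes with at least 500 UMIs. Members and lists were chosen with earlier results of these data known. Alternatives were other cell filters, clusterings and scalings (TMM from edgeR 4.0.16), thinned cells, free RNA subtracted, cycling cells or shared barcodes left out, 1 cluster per class, other UMI minimums and a fold of 1.5. Gene positions are from GENCODE vM21 (GRCm38, the build mm10 names), and upstream sequences from RefSeq.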

Additional observations from a re-analysis of the deposited data

Results flagged for a closer look

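Fasn and Scd2 were past 2-fold in opposite directions in different classes under the same comparison, each with an interval on its own side of 1. Fasn at 7d was higher in conventional dendritic cells (2.57), monocytes (2.15) and neutrophil precursors (4.94) and lower in cluster 12 (0.499). Scd2 at 7d was higher in monocytes (2.39), neutrophil precursors (4.98) and cluster 12 (2.37) and lower in cluster 8 (0.299, on 5 UMIs in 7d and 19 in Ctrl). With 1 library per group the differences between classes were not tested. In neutrophil precursors the clusters that made up the class differed between 7d and Ctrl, and within cluster 10 the ratios were 2.23 for Fasn and 2.67 for Scd2.

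Some barcodes failed the cell filter and had over 50% haemoglobin UMIs, and they were left out of the main comparisons. In Ctrl these 2349 barcodes held more than 3 UMIs of 3 members: 6 of Srebf2, 6 of Scd1 and 5 of Scd2. The part of free RNA and of doublets in these counts was not tested.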

How the results depend on the processing

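The lower Elovl6 level in T cells at 7d had ratios between 0.0252 and 0.0451 under all 12 alternatives, the lowest within the largest shared cluster (0.0252). The higher Srebf2 level in neutrophils at 1d lay between 1.89 and 2.98, the highest with cells thinned to 1000 UMIs (2.98). Of 1619 values of other single ratios under an alternative, 1503 stayed inside the main counting interval, 109 left it and 7 crossed 1. Only ratios past 2-fold in the main setting could count as crossing 1. Smaller ratios that crossed it are counted among the 1503 or the 109. Those 7 were Srebf1 in neutrophils at 7d (1.23 in the largest cluster, 1 UMI), Elovl6 in neutrophil precursors at 1d (1.18 with doublets kept) and at 7d (1.25 with no filter, 1.37 with doublets kept), Scd1 in neutrophil precursors at 7d (1.75 without cycling cells, 2.11 in the largest cluster) and Acaca in cluster 12 at 7d (0.663 when thinned); the cause was not tested. In the largest cluster shared by neutrophil precursors, Scd2 at 7d was at 1.07 and Acaca, on under 20 UMIs over both libraries, at 1.14. Unnamed clusters have no value under the other filters and clusterings.

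Counts of member and class pairs past 2-fold rest on few UMIs and moved more. The UMI minimum was applied again to the counts of each setting, so a pair could drop out without its ratio moving. At 1d the 2 higher pairs became 1 with the stricter filter, with doublets kept, with TMM factors and at 100 UMIs, 4 when thinned and 8 at 1.5-fold. The 6 lower ones became 2 with doublets kept, 1 when thinned, 3 with free RNA subtracted and 0 at 100 UMIs. At 7d the 11 higher pairs became 7 with no filter, 3 when thinned, 6 at 100 UMIs and 22 at 1.5-fold. The 7 lower ones became 4 with the stricter filter and in the largest cluster, 3 with doublets kept, 1 when thinned and at 100 UMIs, and 2 with free RNA subtracted. Pathway list genes past 2-fold at 1d, 23 higher and 22 lower, became 61 and 43 at 5 UMIs, 6 and 7 at 100 UMIs and 71 and 57 at 1.5-fold. At 7d, 75 higher and 46 lower became 36 and 25 at 100 UMIs and 133 and 75 at 1.5-fold, and 30 higher when thinned. The other counts were within 1.5 times. No paired analysis was possible because each group had 1 library and the labels give no replicate numbers. In neutrophils Fasn, Acaca and Elovl6 had 11 UMIs or fewer in each library, too few for a ratio.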

Other observations

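Cycling cells, defined as cells with UMIs of at least 2 of 6 cycling genes, made up 24.5% of kept cells in 1d, 19.3% in 7d and 3.24% in Ctrl. In neutrophil precursors of 1d, cycling cells had more Acaca (8.26 CPM, against 2.37 in the others; ratio 3.49, 1.98 to 6.63), Scd2 (11.9 against 3.55; 3.34, 2.1 to 5.58), Fasn (8.61 against 3.55; 2.43, 1.5 to 4.1) and Srebf1 (9.32 against 4.05; 2.3, 1.46 to 3.74). They had less Srebf2 (47.5 against 84.5; 0.562, 0.497 to 0.636) and Hmgcs1 (13.2 against 19.1; 0.691, 0.537 to 0.89), and the interval of Elovl6 held 1. In 7d the same class gave ratios of 2.17 for Acaca, 1.65 for Scd2, 1.66 for Fasn, 1.92 for Srebf1 and 0.677 for Srebf2, each with an interval off 1.

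Cycling and other cells of this class sat in different clusters. In 1d, 90% of cluster 10 and 94.9% of cluster 11 were cycling, against 3.24% of cluster 5. Of these clusters in 1d and 7d, cluster 10 of 7d was the one with at least 30 cells of both kinds, and within it the intervals for Acaca (1.35, 0.599 to 3.76), Scd2 (0.75, 0.541 to 1.07), Fasn (0.966, 0.631 to 1.55), Srebf1 (1.53, 0.684 to 4.27) and Srebf2 (1.2, 0.792 to 1.89) all held 1. The interval of Hmgcs1 did not, on 1 UMI in the other cells (9.84, 1.73 to 392). In B cell precursors, of which 76.8% in 1d and 55.4% in 7d were cycling, the intervals of all 9 members held 1 in both libraries.

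Cluster 9 had another order. In its cycling cells of 7d, Fasn was at 43.2 CPM, against 84.3 in the others (0.513, 0.417 to 0.634), and Srebf2 at 58.2 against 108 (0.54, 0.45 to 0.649). In 1d Scd2 was at 24.4 CPM in cycling cells and 63.9 in the others (0.381, 0.284 to 0.514), and Hmgcs1 at 31.6 and 20.2 (1.56, 1.01 to 2.51). The part of depth in these ratios was not tested.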
